A study of Homo sapiens with 6 samples.

Results

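The DEAD-box and DEAH-box RNA helicases, a family of enzymes that remodel RNA, were followed in A375 melanoma cells that carried a plasmid for the long non-coding RNA SLNCR or the empty plasmid. Members were the protein-coding genes whose symbol starts with DDX or DHX followed by a digit. Of 58 rows with such a symbol, 7 were pseudogenes or non-coding genes and 3 protein-coding rows were set aside by name, which left 48 members, 32 DDX and 16 DHX genes, among 18318 genes. Of these, 46 had enough counts to be tested. DDX43 had 1, 0 and 0 counts in the SLNCR libraries, against 0, 0 and 0 counts in the empty vector libraries. DDX39B had 13, 6 and 6 counts in the SLNCR libraries, against 1, 4 and 7 counts in the empty vector libraries, and was not tested either. The annotation places a readthrough gene over the whole of DDX39B on the same strand, so reads of the 2 genes cannot be told apart and the level of DDX39B was not judged from its row.

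RNA helicases of this family bind RNA and ATP and open or remodel short stretches of RNA, or strip proteins from it. They act at each step of the life of an RNA, including transcription, splicing, ribosome assembly, export through the nuclear pore, translation and decay. The families take their names from the one-letter code of motif II, a short conserved stretch of the protein that takes part in ATP hydrolysis.

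A375 is an established human melanoma line. The SLNCR group was transfected with a pcDNA3.1 plasmid carrying SLNCR, a CAG promoter and a puromycin resistance gene, and the empty vector group with the backbone of that plasmid. The labels of the SLNCR group read full length and wild type SLNCR. Both groups were transfected with Lipofectamine, grown for 48 h in 2 µg/mL puromycin and sequenced after removal of ribosomal RNA, with 3 libraries per group. The study asked which genes SLNCR regulates in these cells. LINC00673, the annotated gene of SLNCR on chromosome 17, had 1786, 2569 and 2040 counts in the SLNCR libraries, against 195, 194 and 193 counts in the empty vector libraries. Its log2 fold change was 3.38 (SE 0.15, adjusted p = 3.11e-05), which matched the labels of all libraries.

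Total counts were 9287450 to 10822083 per SLNCR library and 9351940 to 10498711 per empty vector library. The labels also call the cells epithelial. Of 12 melanocyte and melanoma markers 9 had a row, 6 were tested and 0 passed in edgeR, with 1 at an unadjusted p under 0.05. Their genes MITF, SOX10 and CSPG4 were present at a mean of 95.6, 12.7 and 175 CPM (counts scaled to library size) in SLNCR libraries and 85.4, 13.4 and 193 CPM in empty vector libraries, whereas the pigment gene PMEL had 13, 10 and 3 counts in SLNCR libraries and 2, 4 and 3 in empty vector libraries. MLANA had 11 to 16, TYRP1 4 to 8 and DCT 1 to 6 counts per library. Of 12 epithelial markers 11 had a row, 2 were expressed enough to test, and their summed level was 5.45 to 7.21 CPM in SLNCR libraries and 5.18 to 7.99 CPM in empty vector libraries. EPCAM had at most 4 counts and CDH1 at most 2 in a library.

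The bases that code for motif II show both the feature that defines the family and how differently its genes are composed. Motif II was located in the coding sequence of the longest coding transcript in 45 of the 48 members. The exceptions were DDX11, DDX60L and DHX32. The 30 bases around it are given here for 11 of the 12 members that passed the test described below, DDX11 being the other, and for DDX19A, the close paralog of DDX19B. Sequences run 5′ to 3′ on the coding strand and come from the transcripts of GENCODE release 29 (GRCh38), with the codons of motif II in capitals. The first 6 genes were higher and the next 5 lower in SLNCR cells.
DHX36: atcgtacttGATGAAATCCATgaaagaaat
DDX6: atagtattgGATGAGGCAGATaagttgctg
DDX52: cttgtagtaGACGAATCAGATaaactgttt
DHX40: attattttgGATGAAGCCCATgaaagaact
DDX50: gttgtgcttGATGAAGTGGATcagatgtta
DDX21: gttgtcctgGATGAAGTGGACcagatgttg
DDX41: ctggccctgGACGAGGCTGACcgcatgatc
DDX19B: tttgttctgGATGAGGCTGATgtcatgata
DHX37: gtgatcatcGACGAGGCCCACgagaggagc
DDX39A: tttgtgctgGACGAGTGTGACaagatgctg
DDX54: gtggtgttcGATGAAGCTGACcggcttttt
DDX19A: tttgttctgGATGAGGCTGATgtcatgata
The windows of DDX19A and DDX19B are the same base for base. The motif II codons held 33.3% to 50% G and C in the 6 genes that were higher and 50% to 75% in the 5 genes that were lower. Over whole coding sequences the third codon position held 32.2% to 44.8% G and C in the genes that were higher, and 61.4% to 79.95% in those that were lower, DDX11 included.

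The 48 members held 0.739%, 0.738% and 0.744% of all gene counts in the SLNCR libraries, against 0.709%, 0.721% and 0.729% in the empty vector libraries. Their lowest SLNCR value was above their highest empty vector value; the difference was not tested. The 21 tested members under 45% GC summed to 4987 to 5239 CPM in SLNCR libraries and 4575 to 4809 CPM in empty vector libraries, and the 14 above 55% GC to 1129 to 1282 CPM in SLNCR libraries and 1321 to 1437 CPM in empty vector libraries, so the members did not move together. The members with the highest levels per transcript length, in counts per kilobase of the longest transcript rescaled to a common sum per library (TPM-like), were DHX9, DHX15, DDX5, DDX21 and DDX3X. DHX9, RNA helicase A, reached 353 ± 17.1 TPM in SLNCR cells and 316 ± 20.6 TPM in empty vector cells (SD, n = 3 each). DHX15, which takes apart spliceosomes after splicing, stood at 343 ± 11.4 TPM in SLNCR cells and 307 ± 20.6 TPM in empty vector cells. DDX5, a cofactor of splicing, transcription and microRNA processing, was at 319 ± 8.18 TPM in SLNCR cells and 317 ± 7.56 TPM in empty vector cells. DHX58, the lowest of the tested members, averaged 1.64 TPM in SLNCR cells and 2.30 TPM in empty vector cells. The order at the top depended on the transcript length used: with the median length of a gene's transcripts, DDX21 averaged 107 TPM over all 6 libraries in place of 282 TPM.

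Of the 46 tested helicases, 12 passed the test (edgeR's quasi-likelihood test, adjusted p under 0.05), which is 26.1% of members, against 16.5% of all 12797 genes tested. They divided evenly: DHX36, DDX6, DDX52, DHX40, DDX50 and DDX21 were higher after SLNCR, where 8.84% of all tested genes were called, and DDX41, DDX19B, DHX37, DDX39A, DDX11 and DDX54 were lower, where 7.67% were. All of these changes were small, with log2 fold changes of 0.15 to 0.27 for the genes that were higher and -0.38 to -0.21 for those that were lower. The SLNCR and empty vector libraries did not overlap for 26 of the 46 members (56.5%), against 38.9% of all tested genes. Of these members 14 were higher in SLNCR cells, against a background of 19.7%, and 12 lower, against 19.1%. The median log2 fold change was -0.03 over the members and -0.01 over all tested genes. Where at least 50 counts in 3 libraries were required, 28.9% of 45 members passed, against 20.7% of all tested genes. By GC content, 21.9% of all tested genes passed under 45%, 4.91% from 45% to 55% and 22.7% above 55%. For the members these shares were 28.6%, 9.09% and 35.7%. The differences between the shares were not tested. DHX30 lay just outside the threshold at an adjusted p of 0.0501 and DDX50 just inside it at 0.0443. In bulk RNA, a lower level cannot be told apart from a smaller share of cells that express the gene.

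The calls depended on which libraries entered the fit and on the base composition of the genes. With edgeR and without SLNCR replicate 1, empty vector replicate 1 or empty vector replicate 2, 0 members passed (18, 13 and 15 at an unadjusted p under 0.05), and of all tested genes 1, 1 and 2 did. Over all tested genes, 3663 of 12878, 2957 of 12898 and 3473 of 12993 had an unadjusted p under 0.05 in these fits. The median fold changes of the genes past the test moved little in those 3 fits, but these genes were chosen for a difference in the same libraries. The 6 genes that were higher had a median log2 fold change of 0.25, 0.19 and 0.25 in those 3 fits, in place of 0.23 with all libraries, and the 6 that were lower had one of -0.31, -0.28 and -0.30, in place of -0.29. Without SLNCR replicate 2 the medians were 0.25 and -0.36, and without SLNCR replicate 3 they were 0.20 and -0.21. Without empty vector replicate 3 they were 0.27 and -0.32. After correction for transcript GC content, 0 members passed in edgeR, against 0.0156% of all tested genes. LINC00673 itself kept a log2 fold change of 3.38 in that fit but had an adjusted p of 0.0538. No GC content was known for LINC00673, so it was corrected at the median GC content of the tested genes, not at its own. Missing the threshold there therefore does not show that a gene was unchanged. Genes whose values are given library by library below therefore also have their fold change after that correction, and the plot of all 12 genes shows every library.

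**Figure D1:**
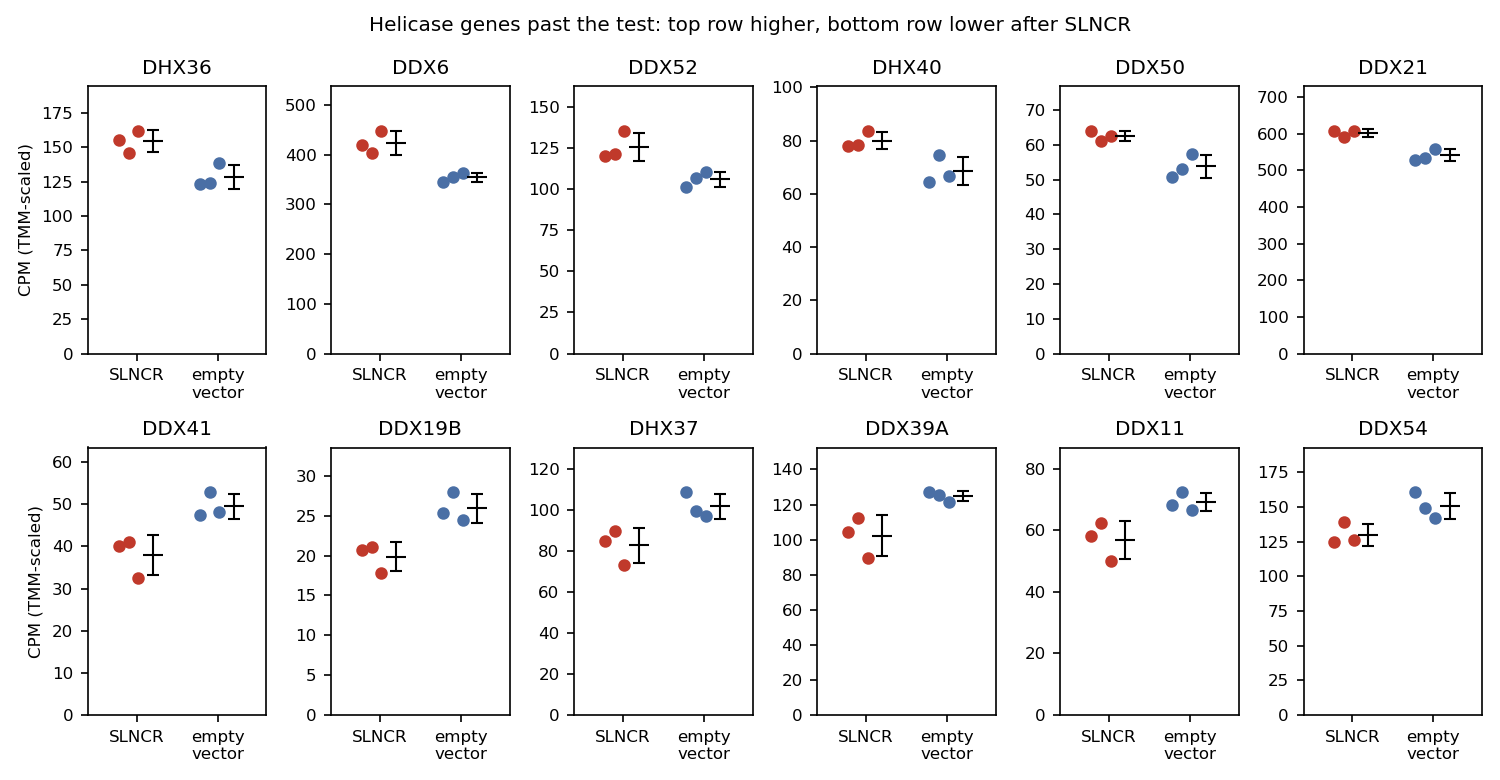
CPM (counts scaled to library size, with TMM factors) of the 12 helicase genes that passed the test, in each SLNCR library (red, left) and each empty vector library (blue, right), with the mean and SD in black and axes that start at 0. In the top row all SLNCR libraries lie above all empty vector libraries, and in the bottom row all lie below. The log2 fold changes between the groups are 0.15 to 0.27 in the top row.

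Among the helicases of translation and mRNA decay, 2 of 5 tested members rose (40%, against 8.84% of all tested genes and 21.5% of those under 45% GC) and none fell. Their median log2 fold change was 0.16 without and 0.058 with the GC correction, and their median GC content was 40.0%. DHX36, which unwinds G-quadruplex structures in RNA and DNA, had 155, 146 and 162 CPM in the SLNCR libraries 1 to 3, against 123, 124 and 138 CPM in the empty vector libraries 1 to 3. Every SLNCR library was above every empty vector library, with a log2 fold change of 0.27 (SE 0.063, adjusted p = 0.0159). After the GC correction it was 0.07 (adjusted p = 0.453). DDX6, a translational repressor and decapping cofactor of processing bodies, had 420, 402 and 448 CPM in the SLNCR libraries, against 345, 355 and 363 CPM in the empty vector libraries. These groups did not overlap either, SLNCR replicate 3 was the highest, and the log2 fold change was 0.26 (SE 0.051, adjusted p = 0.0137). DDX6 kept an unadjusted p of 0.0176 after the GC correction, at a log2 fold change of 0.09 (adjusted p = 0.226).

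DDX3X, which helps ribosomes start on structured leaders, had 832, 799 and 820 CPM in the SLNCR libraries, against 730, 748 and 778 CPM in the empty vector libraries. Its groups did not overlap, yet it missed the threshold with a log2 fold change of 0.12 (SE 0.045, adjusted p = 0.0711). The sign turned after the GC correction, at -0.06. Of the other members in this role, DHX29, a helper of scanning ribosomes, was at 0.16 (adjusted p = 0.133) and DHX34, a factor of nonsense-mediated decay, at -0.17 (adjusted p = 0.0723). With the GC correction DHX29 was at -0.0041 and DHX34 at 0.06.

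Helicases of ribosome assembly, the role with the most members, moved both ways: 3 of 15 tested members rose (20%, against 8.84% of all tested genes), 2 fell (13.3%, against 7.67%), and the median log2 fold change was -0.05 without and -0.0071 with the GC correction. Those that rose have a GC content under 45%, where 21.5% of all tested genes rose. Those that fell lie above 55%, where 22.6% of all tested genes fell. DDX52, whose yeast counterpart Rok1 acts on the small ribosomal subunit, had 120, 121 and 136 CPM in the SLNCR libraries, against 101, 107 and 110 CPM in the empty vector libraries. All SLNCR values were the higher ones, at a log2 fold change of 0.24 (SE 0.064, adjusted p = 0.0210) and 0.08 after the GC correction. DDX21 and DDX50 are nucleolar paralogs that lie side by side on chromosome 10, at chr10:68956128-68985073 and chr10:68901278-68946847 (GRCh38, both on the plus strand). DDX21, which acts in the transcription and processing of ribosomal RNA, had 608, 589 and 606 CPM in the SLNCR libraries, against 528, 534 and 559 CPM in the empty vector libraries. DDX50 had 64.1, 61.0 and 62.5 CPM in the SLNCR libraries, against 50.9, 53.1 and 57.5 CPM in the empty vector libraries. Neither gene's groups overlapped. The log2 fold change was 0.15 (SE 0.046, adjusted p = 0.0321) for DDX21 and 0.22 (SE 0.071, adjusted p = 0.0443) for DDX50, and 0.01 and 0.11 after the GC correction.

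The ribosome assembly helicases that fell were DHX37 and DDX54. DHX37, which works on the precursor of the small subunit, had 84.8, 89.8 and 73.2 CPM in the SLNCR libraries, against 109, 99.5 and 97.0 CPM in the empty vector libraries. SLNCR replicate 3 was the lowest of all and the groups did not overlap, with a log2 fold change of -0.30 (SE 0.075, adjusted p = 0.0185). DDX54, whose yeast counterpart Dbp10 acts on the large subunit, had 125, 139 and 127 CPM in the SLNCR libraries, against 161, 149 and 142 CPM in the empty vector libraries. The nearest values of the groups were 139 CPM in SLNCR and 142 CPM in empty vector cells, and the log2 fold change was -0.21 (SE 0.064, adjusted p = 0.0334). After the GC correction DHX37 was at -0.08 and DDX54 at 0.00 on the log2 scale. Without strand information, DDX54 reads on its overlap with CFAP73 on the opposite strand could not be separated. The other 10 members of this role ranged from DDX49 at -0.29 (adjusted p = 0.0855) to DDX47 at 0.09 (adjusted p = 0.250), and with the GC correction these 2 genes were at -0.07 and -0.05.

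Of the 9 tested splicing helicases 1 passed the test (11.1%, against 16.5% of all tested genes), 2 had an unadjusted p under 0.05, and the median log2 fold change was -0.04. With the GC correction 0 passed in edgeR, and 3 (33.3%, against 15.1% of all tested genes) had an unadjusted p under 0.05, all lower. The gene that passed the test was DDX41, which is found in spliceosomes and is mutated in inherited myeloid neoplasms. It had 40.1, 41.1 and 32.4 CPM in the SLNCR libraries, against 47.4, 52.9 and 48.3 CPM in the empty vector libraries. Groups did not overlap, SLNCR replicate 3 was the lowest, and the log2 fold change of -0.38 (SE 0.090, adjusted p = 0.0159) was the largest in size among the helicases that passed the test. After the GC correction it was -0.23, with an unadjusted p of 0.00786 and an adjusted p of 0.168. Without SLNCR replicate 3 it was -0.28 (adjusted p = 0.0187). The call was lost without SLNCR replicate 1, empty vector replicate 1 or empty vector replicate 2, at adjusted p of 0.0543, 0.106 and 0.0927 in edgeR.

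DHX15 had 422, 425 and 436 CPM in the SLNCR libraries, against 383, 401 and 409 CPM in the empty vector libraries. All SLNCR libraries were higher, but at a log2 fold change of 0.10 (SE 0.047) the adjusted p was 0.127. The GC correction turned its sign, to -0.14 (unadjusted p = 0.00158, adjusted p = 0.104), the gene having the lowest GC content of all tested members, at 35.2%. DDX46, the counterpart of yeast Prp5, was at -0.15 with the correction (unadjusted p = 0.00386, adjusted p = 0.135) and at 0.04 without it (adjusted p = 0.617). The remaining splicing helicases, DDX23, DDX42, DHX8, DHX16, DHX35 and DHX38, lay between -0.11 and 0.12 without the correction.

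In mRNA export, 2 of the 3 tested helicases fell, where 7.67% of all tested genes did, and the median log2 fold change of the 3 was -0.29 without and -0.11 with the GC correction. Of all tested genes, 3.66% fell between 45% and 55% GC, where DDX19B lies, and 22.6% above 55%, where DDX39A lies. DDX19B, a counterpart of yeast Dbp5 that strips proteins from mRNA at the nuclear pore, had 20.7, 21.1 and 17.8 CPM in the SLNCR libraries, against 25.3, 28.0 and 24.5 CPM in the empty vector libraries. No SLNCR library reached the lowest empty vector library, and the log2 fold change was -0.38 (SE 0.10, adjusted p = 0.0211). Of the 12 helicases past the test this was the least altered by the GC correction, at -0.35 (unadjusted p = 0.00139, adjusted p = 0.103), and its GC content of 49.6% was the lowest of the 6 that fell. DDX39A, an mRNA export helicase closely related to DDX39B, had 105, 112 and 89.4 CPM in the SLNCR libraries, against 127, 126 and 121 CPM in the empty vector libraries. The groups did not overlap and SLNCR replicate 3 was again the lowest, with a log2 fold change of -0.29 (SE 0.073, adjusted p = 0.0186) and of -0.11 after the GC correction. DDX19A had 124, 126 and 134 CPM in the SLNCR libraries, against 139, 127 and 138 CPM in the empty vector libraries. Those groups overlapped, and the log2 fold change was -0.08 (SE 0.059, adjusted p = 0.377), or -0.06 after the GC correction.

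The pair of Dbp5 counterparts lies next to each other on chromosome 16, DDX19B at chr16:70289663-70335283 and DDX19A at chr16:70346829-70373383 (GRCh38, plus strand). The coding sequences are 94.2% identical, and 10.6% of all 150-base windows of the longest DDX19B transcript also occur in DDX19A transcripts, against 7.04% in the opposite direction. An annotated readthrough gene overlaps exons of both on the same strand. How the counting treated reads that fit both genes is not given in the sources used here, so the split between them is uncertain.

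None of the 5 helicases with several nuclear roles passed the test in edgeR, although 3 had an unadjusted p under 0.05 (60%, against 34.8% of all tested genes). Their median log2 fold change was 0.11 without and -0.0020 with the GC correction. DDX20, the Gemin3 subunit of the SMN complex that assembles splicing particles, had 63.9, 58.8 and 71.2 CPM in the SLNCR libraries, against 55.9, 56.2 and 54.1 CPM in the empty vector libraries. The groups were separate at a log2 fold change of 0.22 (SE 0.076, adjusted p = 0.0554), and the GC correction brought it to -0.02. DHX9 had 612, 600 and 636 CPM in the SLNCR libraries, against 557, 565 and 594 CPM in the empty vector libraries. These did not overlap either, with a log2 fold change of 0.11 (SE 0.047, adjusted p = 0.111), or 0.03 after the GC correction. DDX1, a subunit of the tRNA ligase complex, was at 0.08 (adjusted p = 0.277), and at -0.0020 after it.

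DDX5 had 467, 465 and 471 CPM in the SLNCR libraries, against 489, 477 and 480 CPM in the empty vector libraries. It was lower in all SLNCR libraries by a narrow margin, with a log2 fold change of -0.04 (SE 0.045, adjusted p = 0.515), and was the single negative value among the 21 members with a GC content below 45%. The GC correction moved it to -0.15, with the smallest adjusted p of all members under that correction, 0.0827. Its paralog DDX17 had 248, 269 and 299 CPM in the SLNCR libraries, against 230, 244 and 253 CPM in the empty vector libraries. SLNCR replicate 1 lay within the range of the empty vector libraries, and the log2 fold change was 0.16 (SE 0.064, adjusted p = 0.0791), or 0.09 after the GC correction. DDX17 shares exon sequence on the opposite strand with KDELR3, and DDX5 with CEP95.

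Both mitochondrial helicases lay below 0 without passing the test in edgeR, and 1 of the 2 had an unadjusted p under 0.05 (50%, against 34.8% of all tested genes). Both have a GC content above 55%, where 46.4% of all tested genes had such a p and the median log2 fold change was -0.21. DHX30, which takes part in mitochondrial ribosome assembly, had 179, 189 and 155 CPM in the SLNCR libraries, against 219, 195 and 192 CPM in the empty vector libraries. These did not overlap, with a log2 fold change of -0.21 (SE 0.071, adjusted p = 0.0501), which became -0.01 after the GC correction. DDX28, which has a similar function, was at -0.08 (adjusted p = 0.504), and at 0.10 after it. Of the RNA sensing helicases, the interferon-induced DDX60L was at 0.18 (SE 0.091, adjusted p = 0.159), and at -0.0058 after the correction. DHX58, the regulator of viral RNA sensing known as LGP2, had only 17, 20 and 16 counts in the SLNCR libraries, against 22, 29 and 21 counts in the empty vector libraries. Its log2 fold change of -0.52 was the largest in size of all tested members, but its error was also the largest (SE 0.27, adjusted p = 0.176), and after the correction it was at -0.35.

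DDX11 bears the family symbol but is an iron-sulfur DNA helicase of sister chromatid cohesion. It had 58.1, 62.4 and 50.1 CPM in the SLNCR libraries, against 68.2, 72.5 and 66.8 CPM in the empty vector libraries. The groups did not overlap at a log2 fold change of -0.28 (SE 0.079, adjusted p = 0.0275), or -0.11 after the GC correction. Besides the fits in which no member passed, the call for DDX11 was also lost without SLNCR replicate 3. Of the 150-base windows of its longest transcript, 4.12% also occur in the pseudogene DDX12P, so a part of its reads may be split. DHX40, a helicase whose function is less well defined, had 77.9, 78.5 and 83.8 CPM in the SLNCR libraries, against 64.5, 74.6 and 66.9 CPM in the empty vector libraries. All SLNCR values were above those of the empty vector libraries, with a log2 fold change of 0.22 (SE 0.070, adjusted p = 0.0413), and 0.07 after the GC correction. The call for DHX40 was lost in the fits in which no member passed, and also without SLNCR replicate 3 and without empty vector replicate 3. The other 3 members with less defined functions were DDX59 at 0.20, DHX32 at 0.13 and DHX57 at 0.04, or 0.14, 0.01 and -0.06 after the GC correction, and none of these passed the test.

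**Figure D2:**
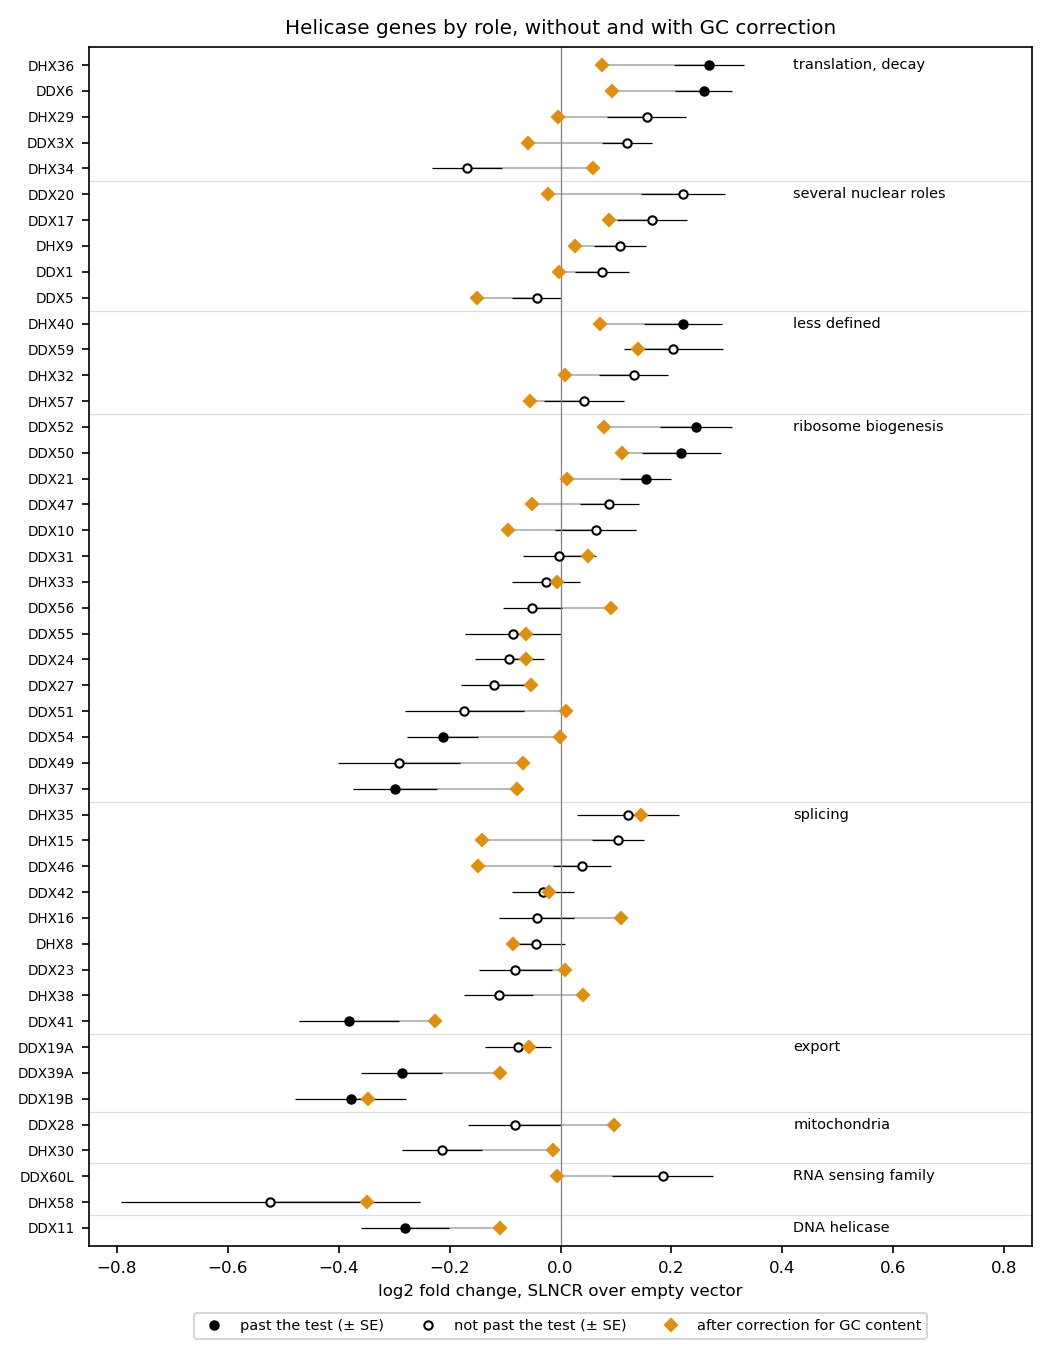
Log2 fold change (SLNCR over empty vector) of the 46 tested helicase genes in groups of known role, without GC correction (circles with SE, filled where adjusted p was under 0.05) and with it (orange diamonds). The translation and decay group has a median of 0.16 and the export group of -0.29 without the correction, and most diamonds lie nearer to 0 than their circles.

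Direction followed the base composition of the genes. Of the 21 members whose longest transcript held under 45% G and C, 20 had a positive log2 fold change, 6 rose and 0 fell, against 21.5% of all tested genes in that range that rose and 0.400% that fell. Of the 11 members between 45% and 55%, DDX19B fell and none rose, against a background of 3.66% lower and 1.25% higher. All 14 members above 55% had a negative log2 fold change and 5 of them fell, against 22.6% of all tested genes in that range that fell and 0.0561% that rose. Across the 46 members, which come from the same 6 libraries and are not independent replicates, Pearson's r between fold change and GC content was -0.83 and Spearman's rho -0.85. Across all 12790 tested genes with a known GC content they were -0.64 and -0.69. With the third codon position of the members alone, r was -0.85.

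**Figure D3:**
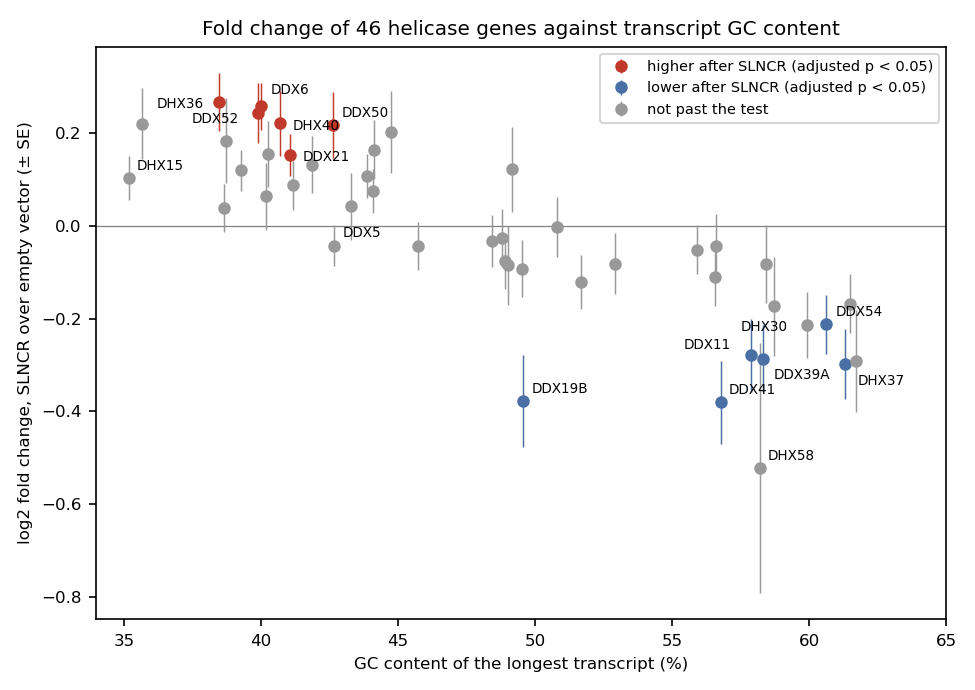
Log2 fold change (SLNCR over empty vector, ± SE) of the 46 tested helicase genes against the GC content of the longest transcript in percent; red genes rose, blue genes fell and grey genes did not pass the test. The 6 genes that rose lie between 38.5% and 42.6% GC and the 6 that fell between 49.6% and 61.3%, and r was -0.83.

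The size of the difference varied between the SLNCR libraries. The 21 members under 45% GC, whether or not they passed the test, had a median log2 deviation from the empty vector mean of 0.14, 0.09 and 0.17 in SLNCR replicates 1 to 3, against -0.04, -0.0016 and 0.04 in empty vector replicates 1 to 3. The 14 members above 55% GC were at -0.23, -0.14 and -0.39 in the SLNCR libraries, against 0.04, 0.01 and -0.06 in the empty vector libraries. The members past the test were chosen for a difference between the groups, so their deviations only describe them. The 6 members called higher had a median of 0.21, 0.19 and 0.31 in SLNCR replicates 1 to 3, against -0.06, -0.01 and 0.05 in empty vector replicates 1 to 3. The 6 members called lower were at -0.27, -0.16 and -0.48 in the SLNCR libraries, against 0.00, 0.04 and -0.06 in the empty vector libraries. SLNCR replicate 3 was farthest from the empty vector libraries in all 4 sets. Small structured RNAs and nuclear non-coding RNAs, taken as a sign of RNA quality, had medians of -0.10, 0.02 and -0.34 in the SLNCR libraries, against 0.11, 0.01 and -0.07 in the empty vector libraries, with 0 of 10 called in edgeR and 0 at an unadjusted p under 0.05. The median GC content of these RNAs was 62.8%, and their median log2 fold change was -0.13 without and 0.0080 with the GC correction. With the correction 0 were called in edgeR, and 2 (20%, against 15.1% of all tested genes) had an unadjusted p under 0.05, both higher. The part of RNA quality in the helicase changes was not tested. Over all tested genes under 45% GC the medians were 0.15, 0.10 and 0.23 in the SLNCR libraries, against -0.04, -0.01 and 0.04 in the empty vector libraries. Those above 55% GC had medians of -0.18, -0.13 and -0.29 in the SLNCR libraries, against 0.05, 0.00 and -0.06 in the empty vector libraries.

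With the GC correction, the correlation across members was -0.10 and the median absolute log2 fold change of the 12 genes was 0.09, in place of 0.26 without it. DDX21, at 0.01 (SE 0.036), and DDX54, at 0.00 (SE 0.048), lay within 1 SE of 0, whereas DDX6, DDX19B, DDX39A and DDX41 were more than 2 SE from it. Of all 46 tested members, 35 were nearer to 0 with the correction than without it, and 18 changed sign. At an unadjusted p under 0.05 stood 6 members (13.04%, against 15.1% of all tested genes). DDX6, higher, and DDX19B and DDX41, lower, had been under that threshold with the same sign without the correction. DDX5 and DDX46, both lower, had not been, and DHX15, also lower, had been under it with the opposite sign.

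Ratios of paralogous genes within a library do not depend on its depth. The log2 ratio of DDX5 to DDX17 was 0.91, 0.79 and 0.66 in the SLNCR libraries, against 1.08, 0.97 and 0.92 in the empty vector libraries. The groups did not overlap, and their difference was -0.20. The log2 ratio of DDX19A to DDX19B was 2.58, 2.58 and 2.91 in the SLNCR libraries, against 2.45, 2.19 and 2.49 in the empty vector libraries, a difference of 0.31 without overlap. The log2 ratio of DDX21 to DDX50 was 3.25, 3.27 and 3.28 in the SLNCR libraries, against 3.38, 3.33 and 3.28 in the empty vector libraries, a difference of -0.06 with groups that nearly touched. After the GC correction the differences were -0.24, 0.30 and -0.10. Each of the 3 pairs gave p = 0.10 in a two-sided exact permutation test, the smallest value that 3 against 3 libraries allow (adjusted p = 0.10). The coding sequences of DDX5 and DDX17 are 68.2% identical and those of DDX21 and DDX50 69.1%, and neither pair shares a window of 150 bases. The ratio of DDX39A to DDX39B was not computed, since DDX39B had too few counts.

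**Figure D4:**
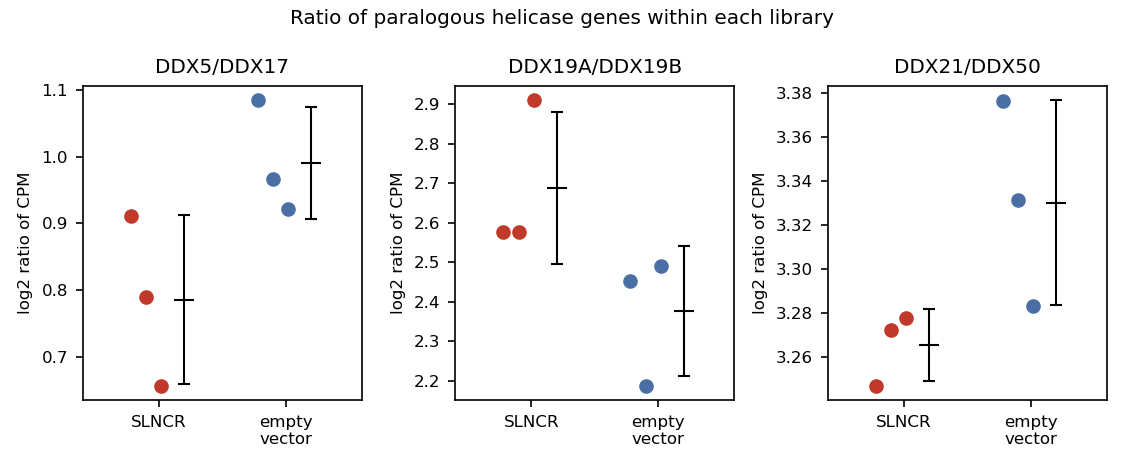
Log2 ratio of the CPM of paralogous helicase genes in each SLNCR library (red, left) and empty vector library (blue, right), with the mean and SD in black; the axes do not start at 0. On average, the SLNCR libraries lie 0.20 below the empty vector libraries for DDX5 to DDX17 and 0.06 below for DDX21 to DDX50. For DDX19A to DDX19B they lie 0.31 above on average.

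RNA helicases outside the DDX and DHX families and proteins that work with helicases were looked at for comparison. Of 15 tested genes among the other RNA helicases, 1 rose and 2 fell (20% called, against 16.5% of all tested genes), with a median log2 fold change of -0.07. The one that rose was AQR, an intron-binding helicase of the spliceosome, at 0.24 (SE 0.071, adjusted p = 0.0353). MOV10, a helicase of microRNA silencing, was lower at -0.26 (SE 0.066, adjusted p = 0.0195), and UPF1, the central helicase of nonsense-mediated decay, at -0.25 (SE 0.076, adjusted p = 0.0375). Their transcripts held 40.3%, 56.6% and 60.5% G and C. After the GC correction AQR was at 0.08, MOV10 at -0.10 and UPF1 at -0.04. EIF4A3, the helicase core of the exon junction complex, was picked after its values were seen: it stood at -0.21 (adjusted p = 0.0514), and unlike the others it was not nearer to 0 after the GC correction, at -0.25 (adjusted p = 0.112).

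Of 38 tested helicase partners, 1 rose and 5 fell (15.8% called, against 16.5% of all tested genes), with a median log2 fold change of -0.02. THOC2, a scaffold of the export complex that holds DDX39 proteins, was higher at 0.23 (SE 0.063, adjusted p = 0.0239). ALYREF, the export adaptor of the same complex, was lower at -0.46 (SE 0.12, adjusted p = 0.0265). ZGPAT and SUGP1, G-patch proteins that bind DHX15, were lower at -0.53 (SE 0.12, adjusted p = 0.0142) and -0.39 (SE 0.084, adjusted p = 0.0139). EIF4G1, the scaffold that carries the EIF4A helicases to capped mRNA, was lower at -0.19 (SE 0.050, adjusted p = 0.0231). EIF4H, a cofactor of the same helicases, was the other one that fell, at -0.18, or -0.09 after the GC correction. With the GC correction ALYREF remained at -0.29, ZGPAT at -0.29 and SUGP1 at -0.22, with adjusted p of 0.15, 0.213 and 0.143, whereas THOC2 was at 0.03 and EIF4G1 at -0.02. Of all 38 partners 0 passed in edgeR with that correction. An unadjusted p under 0.05 was found for 11 of them (28.9%, against 15.1% of all tested genes), 1 higher and 10 lower.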

How the data were processed

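RNA of 3 SLNCR and 3 empty vector libraries was sequenced. The authors deposited whole-number gene counts whose sums differ between libraries, so they were taken as raw. GRCh38 is the build named per the submitters' processing notes, which also list STAR, cutadapt and DESeq2 1.24.07. Which program counted reads, with which annotation and whether by strand, is not given in the sources used here. Of 20238 rows, 1857 that name no gene (2.15% to 2.59% of counts) stayed out, and 63 neighbouring rows with identical counts were removed, which left 18318 genes. Symbols, transcript GC content and length came from GENCODE release 29, for the longest transcript of a gene.

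The test was that of edgeR 4.0.16, run in R 4.3.3 (robust quasi-likelihood F-test, TMM factors, filterByExpr at its default, two-sided, Benjamini-Hochberg adjustment over 12797 genes, threshold 0.05). CPM values are TMM-scaled. The GC correction subtracted a loess curve (span 0.5) of log2 CPM deviations against GC content in each library. The 7 tested genes without a GC value, LINC00673 among them, were given the median GC content. The fit without the GC correction was tested on simulated counts that held no shift with GC content, and the fit with the correction was not. Depth was 9287450 to 10822083 counts per library, at a biological coefficient of variation of 5.65%. The libraries are labelled biological replicates without a word on separate cultures, so p-values measure the spread between these libraries. Libraries of a group differed by more than sampling noise (chi-square per degree of freedom 1.79 to 6.97). Replicate numbers were not treated as pairs in the main test, and whether they pair the libraries is not known.

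Members, roles and lists were chosen with earlier results of these data known. Named were members past the test, the 5 with the highest levels per length, the smallest p in each role, the paralog pairs, and up to 4 called genes in each direction of the comparison lists; other names were added to describe a role. Alternatives were other size factors (RLE, upper quartile), no filter or at least 50 counts in 3 libraries, DESeq2 1.42.0, limma-voom (limma 3.58.1), a replicate block, the GC correction with and without that block, keeping identical rows, the median transcript length, and leaving out each library.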

Additional observations from a re-analysis of the deposited data

How the results depend on the processing

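The 12 calls among the helicases were 12, 12, 17, 13, 11, 13 and 12 under RLE factors, upper quartile factors, no filter, the filter of 50 counts, DESeq2, limma-voom and identical rows kept, and no named gene changed direction there. Among all tested genes the same settings called 2095, 2085, 2904, 2209, 1627, 2139 and 2110. The number tested was 18318 with no filter and 9084 with DESeq2. DESeq2 did not call DDX50 and DHX40, nor did upper quartile factors call DDX50. Under the strict filter 28.9% of 45 members were called, against 20.7% of all tested genes. Leaving out each library in turn gave 0 to 17 calls (0 to 8 higher, 0 to 9 lower), and 1 to 3366 among all tested genes in place of 2112. With the GC correction 0 members passed, 0 higher and 0 lower, and 2 of all tested genes; 18 of the 46 tested members changed sign, among them DHX15 (-0.1420), DDX3X (-0.0578), DDX20 (-0.0220), DDX60L (-0.0058), DDX46, DHX34, DHX29, DDX28, DDX47, DHX57 and DDX1. The GC correction without each library in turn, chosen after seeing the data, gave 0 to 4 calls among members (0 to 0 higher, 0 to 4 lower) and 0 to 668 among all genes (101 without SLNCR replicate 3). The 4, without SLNCR replicate 2, were DDX19B, DDX46, DDX5 and DHX15, all lower. Same-numbered libraries deviated together with correlations of 0.041, 0.022 and 0.195. The libraries of replicate 3 were each other's best match, and those of replicates 1 and 2 were not. Whether the numbers pair the libraries stayed unsettled. With the replicate block 19 members were called (10 higher, 9 lower) and 3523 of all genes. The block together with the GC correction called 3 members, 0 higher and 3 lower (DDX19B, DDX5 and DHX15), and 407 of all genes, with DHX15 at -0.1429, DDX3X at -0.0586, DDX20 at -0.0219 and DDX60L at -0.0058. The cause of these shifts was not tested. Levels by the median transcript length were 639, 496, 628, 107 and 165 TPM for DHX9, DHX15, DDX5, DDX21 and DDX3X, in place of 334, 325, 318, 282 and 251. The paralog differences ranged from -0.27 to -0.14 for DDX5 to DDX17, 0.20 to 0.37 for DDX19A to DDX19B and -0.09 to -0.04 for DDX21 to DDX50 when a library was left out. At a biological coefficient of variation of 5.65% and 3 libraries a group, fold changes near the size of the errors given could not be told from no change, and DHX58, at 16 to 29 counts, was the least precise.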
